A study of Mus musculus with 6 samples.

Results

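Tiparp and 9 further genes of the poly(ADP-ribose) polymerase (PARP) family were followed in cultured mouse B cells with and without the aryl hydrocarbon receptor (AhR). The 10 members, Tiparp, Parp1, Parp2, Parp3, Parp4, Parp8, Parp9, Parp10, Parp12 and Parp14, were taken by symbol from a table of 23420 genes, and all 10 were among the 13682 genes with enough reads to be tested. Splenic B cells came from 3 Ahr+/+ and 3 Ahr-/- mice on the C57Bl/6J background. The study's methods give the knockout as the tm1Bra allele of Ahr, carried in every cell of the animal, and the mice as over 8 weeks old. The cells of both genotypes were kept in culture for 8 h with 10 µg/ml anti-IgM, an antibody that engages the B-cell receptor, and 20 ng/ml IL-4. During the last 4 h of culture every sample also received 250 nM FICZ, a tryptophan-derived AhR ligand, so a response to FICZ itself cannot be told apart from the other effects of genotype.

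PARP enzymes take ADP-ribose from NAD and attach it to proteins. Parp1, Parp2 and the tankyrases build chains of ADP-ribose, whereas most other members transfer single units, and a few have little or no activity of their own. Tiparp (PARP7) transfers single units. It is a known target gene of AhR and ADP-ribosylates the receptor, which makes it part of a feedback loop that limits AhR signalling. Parp9, Parp10, Parp12 and Parp14 are known as interferon-induced genes, and Parp14 is known as a cofactor of STAT6, the transcription factor activated by IL-4 in B cells.

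Library depth lay between 22095096 and 53648787 counts, and 3 counts, the floor used here, corresponded to 0.0559 to 0.136 CPM (counts scaled to library size). Ahr itself had a mean of 13175 ± 682 (SD, n = 3) normalised counts in Ahr+/+ cells and 9174 ± 472 (SD, n = 3) in Ahr-/- cells, a log2 fold change of −0.52 (edgeR adjusted p = 7.1e-06). These counts cover the whole gene and do not show which exons are present. The B-cell markers Cd79a, Cd79b, Ms4a1 and Pax5 were abundant in every library and higher in Ahr-/- cells. Cd79b, a chain of the B-cell receptor, had 21928 ± 1113 normalised counts in Ahr+/+ and 27989 ± 717 in Ahr-/- cells (SD, n = 3, edgeR adjusted p = 5.9e-05). Of 6 plasmacytoid dendritic cell markers, 5 were higher in Ahr-/- cells, as were 9.79% of all tested genes. Their summed level was 3880 to 4513 against 6683 to 8420. The largest parts of this sum were Ly6d (mean 1654 in Ahr+/+ and 4058 in Ahr-/- cells) and Bst2 (2127 and 2498), which did not pass. Siglech, a lectin of plasmacytoid dendritic cells, rose from 56.8 ± 4.19 to 269.7 ± 32.3 normalised counts (SD, n = 3). None of these markers was at 0 in any library.

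The promoter sequences of 4 genes are shown because they set the member that fell most in Ahr-/- cells (Tiparp) beside a gene whose genotypes overlapped (Parp1), one that rose (Parp8) and one with an interferon-type motif (Parp4). AhR and its partner ARNT bind a short core, GCGTG, known as the dioxin response element (DRE) core. The sequences are from RefSeq on GRCm38.p6, run 5′ to 3′ along the gene's strand, and stop before the first base of the annotated gene. Capitals mark GCGTG or its reverse complement CACGC in the first 3 sequences, and matches to GAAANNGAAA, the core of an interferon-stimulated response element (ISRE), in the last. The positions are chr3:65528197-65528409 (plus strand) for Tiparp, chr1:180568641-180568890 (plus strand) for Parp1, chr13:117025538-117025781 (minus strand) for Parp8 and chr14:56575369-56575618 (plus strand) for Parp4.
Tiparp: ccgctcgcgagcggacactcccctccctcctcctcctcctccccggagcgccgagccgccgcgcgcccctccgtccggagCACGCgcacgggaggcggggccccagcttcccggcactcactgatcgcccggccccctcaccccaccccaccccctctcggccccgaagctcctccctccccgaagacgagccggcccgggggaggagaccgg
Parp1: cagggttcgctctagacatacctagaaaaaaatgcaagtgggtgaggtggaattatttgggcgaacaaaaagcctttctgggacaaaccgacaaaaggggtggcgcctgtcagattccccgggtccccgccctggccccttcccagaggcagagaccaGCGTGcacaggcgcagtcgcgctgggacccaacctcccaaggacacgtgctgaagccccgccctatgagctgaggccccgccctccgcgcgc
Parp8: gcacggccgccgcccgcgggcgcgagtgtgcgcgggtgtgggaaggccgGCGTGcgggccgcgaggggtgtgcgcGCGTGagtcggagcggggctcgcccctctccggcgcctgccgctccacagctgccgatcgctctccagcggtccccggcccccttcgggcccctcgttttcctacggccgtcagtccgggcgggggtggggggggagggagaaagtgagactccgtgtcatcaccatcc
Parp4: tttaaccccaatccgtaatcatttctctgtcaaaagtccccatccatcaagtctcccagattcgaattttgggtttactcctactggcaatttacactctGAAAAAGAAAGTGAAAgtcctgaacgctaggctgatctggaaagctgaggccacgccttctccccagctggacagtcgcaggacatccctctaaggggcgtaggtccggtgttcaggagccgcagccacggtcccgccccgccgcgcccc

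The 250 bases before the RefSeq start were searched on both strands in the 7 of 10 members with a RefSeq promoter entry. Parp9, Parp10 and Parp14 had no entry and were not searched, so nothing is said here of their promoters. GCGTG was found in each of the 7, with 2 matches in Parp8 and 1 in each of the others, and in 28.2% of 32851 promoter windows of the same length genome-wide. In Tiparp the match lay at chr3:65528277-65528281, and it began 170 bases before the start. The longer form TNGCGTG was in 4.1% of all windows and in none of the 7 searched members. GAAANNGAAA was in 2.98% of all windows and, among the 7 searched members, only in Parp4, where 2 matches overlapped at chr14:56575469-56575478 and chr14:56575475-56575484. The STAT6-type letters TTCNNNNGAA (5.85% of windows) were in none of the 7 searched windows. A match is a description of letters and not a binding site.

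Tiparp lost nearly all of its transcript in Ahr-/- cells, and no other member changed by a comparable amount. Parp3 and Parp8 were higher in Ahr-/- cells by 27.7% and 34.2% of their Ahr+/+ means, and Parp4 was slightly lower. The levels of Parp1, Parp2, Parp9, Parp10, Parp12 and Parp14 overlapped between genotypes. By edgeR's quasi-likelihood test, 4 of 10 members passed an adjusted p of 0.05, 2 lower and 2 higher in Ahr-/- cells. Over all 13682 tested genes 17.9% passed, 8.13% lower and 9.79% higher. The median log2 fold change of the members was 0.0051 and that of all tested genes 0.0021. The same 4 members had genotypes that did not overlap, as did 33.5% of all tested genes. DESeq2 called 3 of the 10, and 2184 of the 13682 tested genes.

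**Figure D1:**
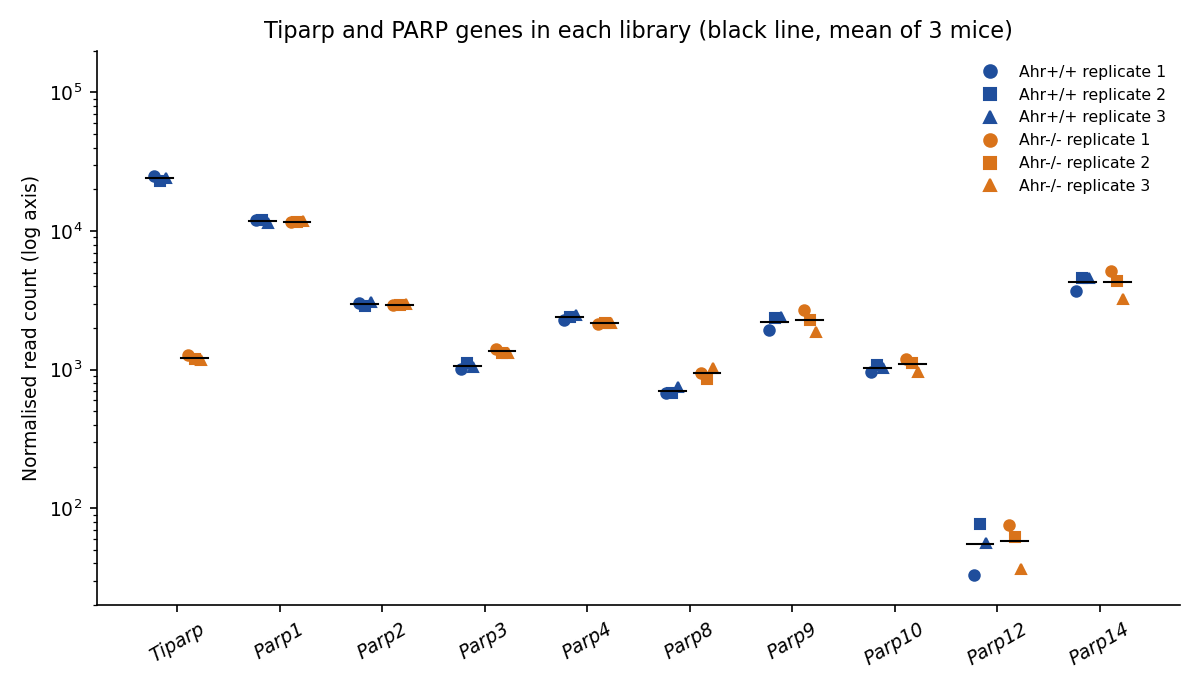
Normalised read count (log axis) of the 10 members in each of the 6 libraries, with Ahr+/+ in blue, Ahr-/- in orange and the black line at the mean of 3 mice. Tiparp lies between 22991 and 24959 in Ahr+/+ cells and between 1167 and 1285 in Ahr-/- cells, while for 6 members the points of the genotypes overlap.

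Tiparp lies on chromosome 3 of GRCm38 (chr3:65528410-65555518, plus strand). Its normalised counts in the 3 Ahr+/+ mice were 24959, 22991 and 24095, against 1285, 1201 and 1167 in the 3 Ahr-/- mice. Every Ahr-/- library was far below every Ahr+/+ library, and within each genotype the 3 mice lay close together. The means were 24015 ± 987 and 1218 ± 60.9 (SD, n = 3), so 5.07% of the Ahr+/+ level was left, a 19.7-fold difference. The log2 fold change was −4.31 (95% interval −4.42 to −4.20, standard error 0.050, edgeR adjusted p = 1.6e-14). The two-sided exact permutation test gave p = 0.1, the smallest that 3 mice against 3 allow. In bulk RNA, fewer cells expressing a gene and less RNA in each cell cannot be told apart. The transcript was not absent, since 749, 1690 and 1280 reads were counted in the Ahr-/- libraries, well above the floor of 3.

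Among all tested genes Tiparp stood 23rd by log2 fold change, and 40 genes were called and at least 10-fold lower. Because it was so abundant in Ahr+/+ cells, it stood 3rd by loss of normalised counts. An antisense gene, 4931440P22Rik, overlaps its exons on the opposite strand, with 124, 220 and 165 counts in Ahr+/+ and 11, 16 and 23 in Ahr-/- libraries. These counts are small beside those of Tiparp. The sources used here do not state whether reads were counted by strand, so reads of the overlapping stretch may belong to either gene.

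Other AhR target genes were lower as well. Of 7 listed, 4 were tested and all 4 were lower in Ahr-/- cells, as were 8.13% of all tested genes. The median log2 fold change of the 4 was −6.83 when Cyp1b1 alone is set at its bound. Cyp1a1, the cytochrome P450 most used as a readout of AhR activity, had a mean of 5246 ± 242 normalised counts in Ahr+/+ cells and 5.36 ± 2.20 in Ahr-/- cells (SD, n = 3). Nqo1, a quinone reductase, went from 1221 ± 47.6 to 53.8 ± 9.82 (log2 fold change −4.53, edgeR adjusted p = 7.6e-12). Cyp1b1 had 229.3 ± 8.82 normalised counts in Ahr+/+ cells and no count in any Ahr-/- library, which is at least 68.7-fold lower against a floor of 3 counts per library. Ahrr, the AhR repressor, had 329.3 ± 32.3 normalised counts in Ahr+/+ cells and between 0 and 3.43 in Ahr-/- libraries. Its Ahr-/- mean of 1.86 was below the floor, which corresponds to a mean of 3.34. It entered the median above at its fitted log2 fold change of −7.56, not at a bound. Tiparp kept a larger remaining percentage in Ahr-/- cells than Cyp1a1, at 5.07% against 0.102%, and one close to that of Nqo1, at 4.41%.

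The 5 genes most like Tiparp over the 6 libraries were found by the smallest root mean square difference of mean-centred log2 CPM, over 9683 genes with a mean of at least 100 normalised counts. They were chosen by their pattern, so their levels are a description. Hic1, a transcriptional repressor, was nearest (difference 0.151), with a mean of 2542 normalised counts in Ahr+/+ cells and 108.8 in Ahr-/- cells. Nqo1 followed (0.161). Pltp, a phospholipid transfer protein, went from 1415 to 64.9 (0.196). Rem2, a small GTPase, went from 523.6 to 39.0 (0.323). Lrrk2, a large kinase with a GTPase domain, went from 16641 to 1429 (0.386). In Ahr-/- cells these 5 genes kept between 4.28% and 8.59% of their Ahr+/+ level.

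**Figure D2:**
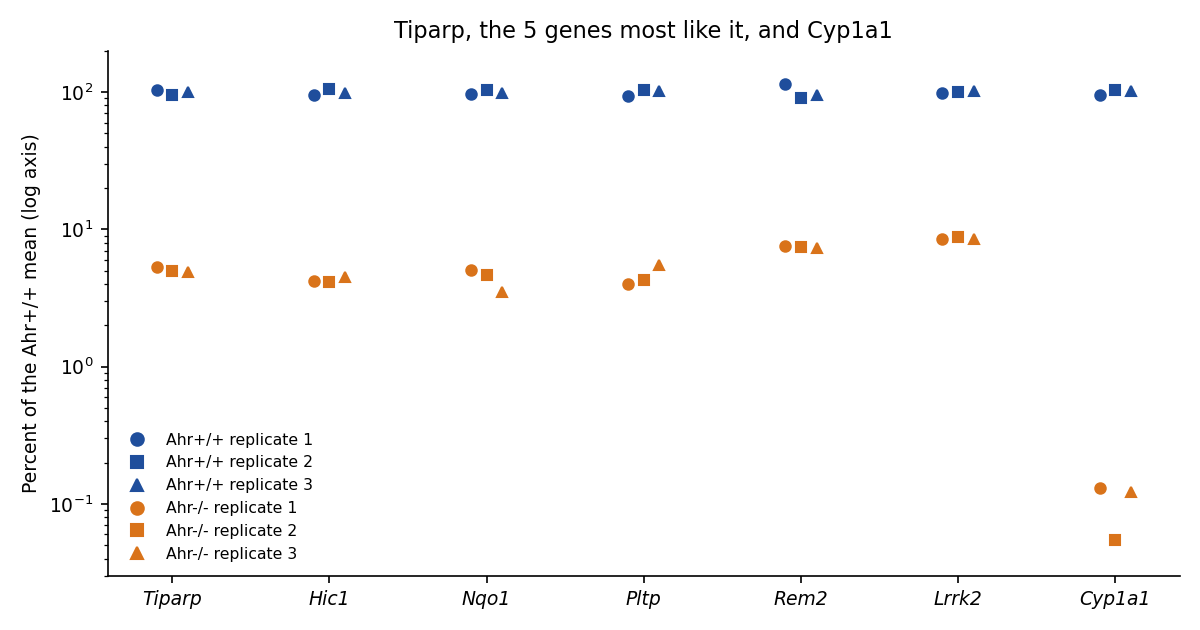
Level of Tiparp, of the 5 genes most like it and of Cyp1a1 in each library, as a percentage of the gene's Ahr+/+ mean (log axis), with Ahr+/+ in blue and Ahr-/- in orange. Tiparp keeps 5.07% on average and Lrrk2 8.59%, while Cyp1a1 keeps 0.102%.

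Tiparp went from the most abundant transcript of the family to one of middling level. Levels were compared between genes as RPKM (counts scaled to library size and per kilobase of exon), using GENCODE exon lengths. In Ahr+/+ cells Tiparp had the highest level of 16 PARP genes, 143.4 ± 5.89, and Parp1 was next at 57.9 ± 1.63 (SD, n = 3). In Ahr-/- cells Tiparp fell to the 9th place at 7.27 ± 0.364, and Parp1 was first at 57.4 ± 0.986. Tiparp made up 45.2%, 42.4% and 43.6% of the summed RPKM of the 16 genes in Ahr+/+ mice and 3.88%, 3.78% and 3.76% in Ahr-/- mice. At its Ahr-/- level Tiparp's range overlapped that of Parp10, its lower neighbour, and did not overlap that of Parp4, its upper neighbour.

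**Figure D3:**
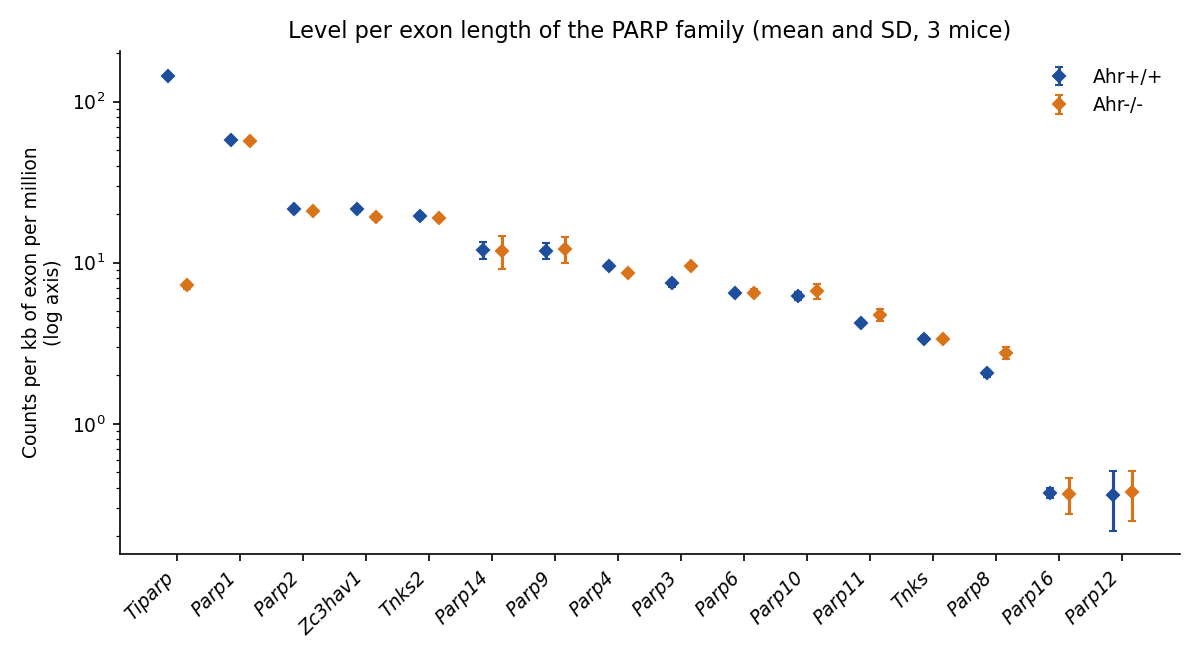
Level per exon length (RPKM, counts scaled to library size and per kilobase of exon, log axis) of 16 PARP family genes, ordered by their Ahr+/+ level, as mean and SD of 3 mice per genotype. Tiparp moves from 143.4 to 7.27, from the 1st to the 9th place, while Parp1 lies at 57.9 and 57.4.

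Behind Tiparp and Parp1, the Ahr+/+ order of the members was Parp2 (21.5 RPKM), Parp14 (12.0), Parp9 (11.9), Parp4 (9.53), Parp3 (7.45), Parp10 (6.22), Parp8 (2.06) and Parp12 (0.362). Of these neighbours, Parp14 and Parp9 had overlapping ranges over the 3 mice. In Ahr-/- cells Parp3, at 9.52, stood above Parp4, at 8.65, and their ranges did not overlap. Parp14, at 11.9 in Ahr-/- cells, overlapped both Parp9 (12.2) and Parp3. Parp12 and Parp16, a family member of the endoplasmic reticulum, were the lowest of the 16 genes in both genotypes and overlapped each other.

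Parp1 and Parp2, the enzymes that detect DNA strand breaks, varied little between mice of a genotype. Parp1 (chr1:180568924-180601254) had 11946, 11976 and 11387 normalised counts in Ahr+/+ and 11564, 11549 and 11904 in Ahr-/- libraries. The log2 fold change was −0.01, and its 95% interval of −0.09 to 0.07 bounds the difference closely (edgeR adjusted p = 0.86). Parp2 (chr14:50807841-50821301) had 3035, 2883 and 3085 against 2909, 2915 and 2968, a log2 fold change of −0.03 (95% interval −0.12 to 0.05, edgeR adjusted p = 0.62). For both genes the libraries of the genotypes were interleaved. Of their partners in strand break repair, 0 of 9 passed in edgeR, 0 of 9 had an unadjusted p under 0.05 and DESeq2 called 0, beside 17.9% of all tested genes called by edgeR. The median log2 fold change of the 9 was 0.0091. Xrcc1, the scaffold of single-strand break repair, had a log2 fold change of −0.03 (95% interval −0.12 to 0.06).

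Parp3, which takes part in the response to double-strand breaks, was higher in Ahr-/- cells. At chr9:106470322-106476949, it had 1012, 1119 and 1048 normalised counts in Ahr+/+ and 1411, 1329 and 1320 in Ahr-/- libraries. Each Ahr-/- mouse was above each Ahr+/+ mouse. Its level in Ahr-/- cells was 127.7% of that in Ahr+/+ cells, a log2 fold change of 0.35 (standard error 0.052, edgeR adjusted p = 4.4e-04). Its exons overlap those of Rrp9 on the opposite strand, which had 4197 to 10491 counts.

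Parp8, a little-studied member, showed the larger of the increases. It lies at chr13:116854820-117025537 and had 682, 678 and 748 normalised counts in Ahr+/+ and 941, 858 and 1030 in Ahr-/- libraries, again without overlap. Its level in Ahr-/- cells was 134.2% of that in Ahr+/+ cells, a log2 fold change of 0.42 (standard error 0.072, edgeR adjusted p = 0.0013). Parp3 and Parp8 passed in all 13 alternative fits that could change the test. Markers of B cells and of plasmacytoid dendritic cells were higher in the same Ahr-/- libraries. Of 4 NK cell markers, 2 were higher and 2 did not pass. Of 4 plasma cell markers, 2 were lower, 1 was higher and 1 did not pass. Over all tested genes 9.79% were higher and 8.13% lower. The part of these cell types in the increases of Parp3 and Parp8 was not tested.

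Parp4, the PARP of cytoplasmic vault particles, had 2283, 2415 and 2482 normalised counts in Ahr+/+ and 2149, 2178 and 2190 in Ahr-/- libraries (chr14:56575619-56659794). Its exons overlap Gm16573 on the opposite strand. The genotypes did not overlap, but the gap between the lowest Ahr+/+ and the highest Ahr-/- library was small. The log2 fold change was −0.14 (standard error 0.041, edgeR adjusted p = 0.035). The call was lost in 6 of these 13 alternative fits, with adjusted p of 0.0506 in DESeq2, 0.082 with library size alone as scaling, and 0.0816, 0.143, 0.0884 and 0.128 without Ahr+/+ replicate 2, Ahr+/+ replicate 3, Ahr-/- replicate 1 and Ahr-/- replicate 2.

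**Figure D4:**
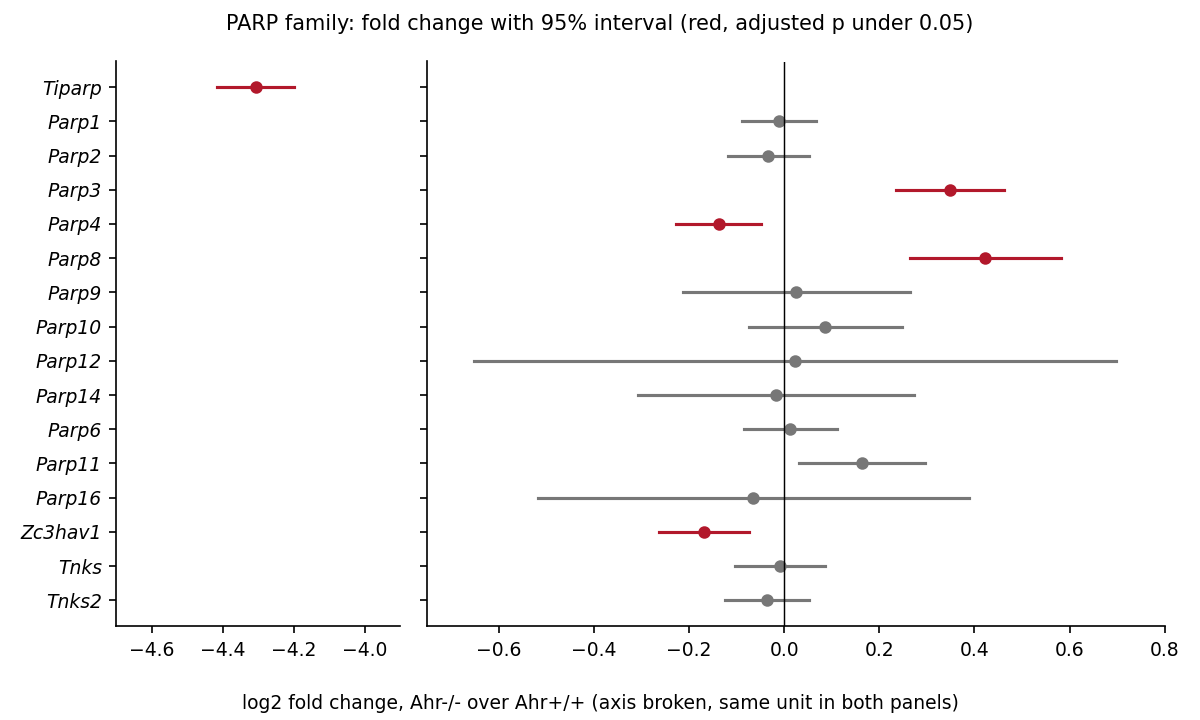
Log2 fold change (Ahr-/- over Ahr+/+) with its 95% interval for the 10 members and 6 other PARP family genes, in red where the edgeR adjusted p was under 0.05. Tiparp lies at −4.31 on the left panel of a broken axis, and the other 15 genes lie between −0.17 and 0.42.

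The interferon-induced members Parp9, Parp10, Parp12 and Parp14 had the widest ranges between mice of one genotype among the 10 members. Parp14 (chr16:35832874-35871544) had 3667, 4595 and 4603 normalised counts in Ahr+/+ and 5181, 4373 and 3225 in Ahr-/- libraries. The highest and the lowest library were both Ahr-/-. Gm49730 shares exon sequence with it on the same strand. The log2 fold change was −0.02, with a 95% interval of −0.31 to 0.27 (edgeR adjusted p = 0.95).

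Parp9, a partner of the ubiquitin ligase Dtx3l, had 1926, 2349 and 2389 against 2683, 2298 and 1857 (chr16:35938470-35972605), a log2 fold change of 0.03 (95% interval −0.21 to 0.26, edgeR adjusted p = 0.91). Parp9 and Dtx3l lie head to head, and their exons overlap on opposite strands. Dtx3l had 2731 ± 281 in Ahr+/+ and 2454 ± 240 in Ahr-/- cells (SD, n = 3), a log2 fold change of −0.16 (95% interval −0.33 to 0.01, edgeR adjusted p = 0.19).

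Parp10 (chr15:76231174-76243441), a mono-ADP-ribosyltransferase, had 963, 1077 and 1028 against 1188, 1123 and 961. The Ahr-/- libraries included both the highest value and the lowest, and the log2 fold change was 0.09 (95% interval −0.07 to 0.25, edgeR adjusted p = 0.49). Parp10 shares exon sequence on the same strand with Plec. Parp12 (chr6:39086410-39118349), an antiviral member, was the lowest of the 10, with 33.0, 77.5 and 56.2 against 75.5, 61.8 and 36.5 normalised counts. Its log2 fold change of 0.02 had a wide 95% interval, −0.65 to 0.70 (edgeR adjusted p = 0.97), so a moderate difference was not detectable.

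These 4 members had the same lowest Ahr+/+ mouse, and the same highest and lowest Ahr-/- mouse, as the interferon-stimulated genes. Among Ahr+/+ mice replicate 1 was lowest for Parp9, Parp10, Parp12 and Parp14, and among Ahr-/- mice replicate 1 was highest and replicate 3 lowest for all 4. This order was not particular to them. Parp3 had it too, with 1012, 1119 and 1048 normalised counts in Ahr+/+ and 1411, 1329 and 1320 in Ahr-/- replicates 1 to 3, as did Dtx3l. Of 28 interferon-stimulated genes, 28 were lowest in Ahr+/+ replicate 1 among Ahr+/+ mice, and 28 were highest in Ahr-/- replicate 1 and lowest in Ahr-/- replicate 3 among Ahr-/- mice. Their median deviation from the mean of the 6 libraries, in log2 CPM, was −0.313, 0.279 and 0.208 in Ahr+/+ replicates 1 to 3 and 0.543, −0.0424 and −0.646 in Ahr-/- replicates 1 to 3. For Parp14 it was −0.203 in Ahr+/+ replicate 1, 0.122 in replicate 2 and close to that in replicate 3, and 0.295, 0.0504 and −0.389 in Ahr-/- replicates 1 to 3. The widest range within a genotype was 1.18 for Parp12, 0.684 for Parp14, 0.53 for Parp9 and 0.305 for Parp10, against 0.263 for Parp8, 0.144 for Parp3, 0.139 for Tiparp, 0.121 for Parp4, 0.0979 for Parp2 and 0.0728 for Parp1. Genes of 1 library share its cells and preparation and are not independent of each other, and the cause of the differences between mice was not tested.

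**Figure D5:**
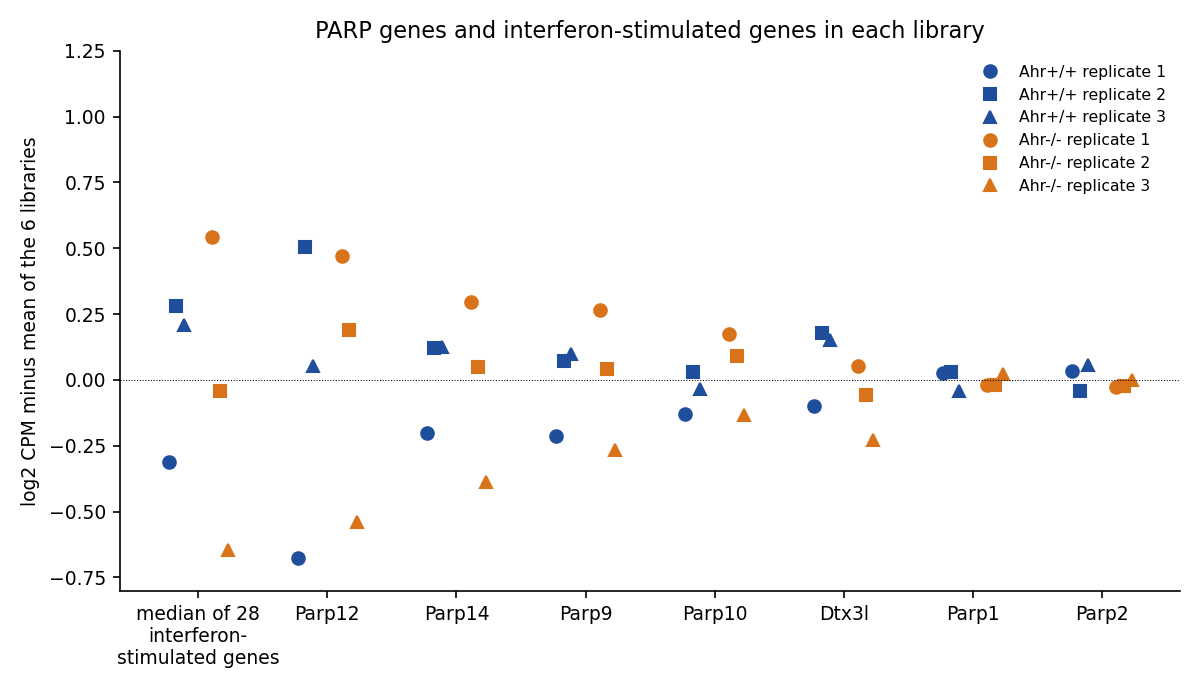
Deviation of log2 CPM from the mean of the 6 libraries for the median of 28 interferon-stimulated genes, 4 interferon-induced PARP genes, Dtx3l, Parp1 and Parp2, with Ahr+/+ in blue, Ahr-/- in orange and a symbol per replicate. The interferon-stimulated median ranges from −0.646 to 0.543, Parp14 from −0.389 to 0.295, and Parp1 from −0.0415 to 0.0313.

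Between genotypes, 0 of the 28 interferon-stimulated genes passed in edgeR, 0 had an unadjusted p under 0.05 and DESeq2 called 0, beside 17.9% of all tested genes called by edgeR. Their median log2 fold change was −0.0665. Without Ahr-/- replicate 1, or without Ahr-/- replicate 3, 2 of 28 passed.

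The IL-4 and STAT6 pathway, in which Parp14 acts, was measured through 14 further genes, of which 3 were lower and 5 higher in Ahr-/- cells, with a median log2 fold change of 0.0912. These 8 of 14 are 57.1%, beside 17.9% of all tested genes (8.13% lower, 9.79% higher). Stat6 was slightly lower, at 17904 ± 444 in Ahr+/+ and 16290 ± 283 in Ahr-/- cells (SD, n = 3, log2 fold change −0.14, edgeR adjusted p = 0.015). Jak1, a kinase of the IL-4 receptor, fell by 0.40 on the log2 scale (edgeR adjusted p = 2.6e-06), and Cish, a STAT-induced inhibitor, by 0.34 (edgeR adjusted p = 6.5e-05). Ccl22, a chemokine induced by IL-4, rose by 1.21, from 812.3 ± 32.0 to 1883 ± 461 (SD, n = 3, edgeR adjusted p = 6.0e-05). Irs2, an adaptor of the IL-4 receptor, rose by 0.51 (edgeR adjusted p = 9.6e-04). Dendritic cells also make Ccl22. Of 6 conventional dendritic cell markers, 3 were higher in Ahr-/- cells, 1 was lower and 2 did not pass. Over all tested genes 9.79% were higher and 8.13% lower. Itgax, Clec9a and Clec10a rose (log2 fold changes 1.06, 1.86 and 1.83), the last 2 with at most 34.1 normalised counts in any library. Zbtb46, the largest part of the summed level, fell (−0.40). The summed level of the 6 markers was 804 to 928 normalised counts in Ahr+/+ and 844 to 1012 in Ahr-/- libraries. None was at 0 in any library, and the part of these markers in the rise of Ccl22 was not tested.

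Further genes of ADP-ribose metabolism are given beside the 17.9% of all tested genes that passed. Of 6 other PARP family genes, 1 passed (16.7%): Zc3hav1, the zinc-finger antiviral protein, was lower, from 5386 ± 183 to 4796 ± 207 normalised counts (SD, n = 3, log2 fold change −0.17, edgeR adjusted p = 0.017), and it did not pass without Ahr+/+ replicate 2 or without Ahr+/+ replicate 3. Parp6, Parp11, Parp16, Tnks and Tnks2 did not pass, and the median of the 6 was −0.0229. Of 15 readers, erasers and partners of ADP-ribosylation, 13 were tested and 0 passed in edgeR, with 1 at an unadjusted p under 0.05 and 0 called by DESeq2. That gene was Macrod2, with at most 3.65 normalised counts in any library, named here after its values were seen. Hpf1 (2700029M09Rik in the table), the factor that directs Parp1 and Parp2 to serine, had a log2 fold change of −0.05 (95% interval −0.15 to 0.04). The median of the 13 was −0.0304.

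Of 22 genes that make or use NAD, the substrate of ADP-ribosylation, 20 were tested. Nmnat3, which makes NAD in mitochondria, was the 1 that passed (5.0%, beside 17.9% of all tested genes), at 428, 429 and 426 normalised counts in Ahr+/+ and 529, 555 and 560 in Ahr-/- libraries (log2 fold change 0.36, edgeR adjusted p = 0.0013). The median of the 20 genes was 0.0288. Nampt, the rate-limiting enzyme of NAD salvage had 12913 ± 748 in Ahr+/+ and 12592 ± 1024 in Ahr-/- cells (SD, n = 3, log2 fold change −0.04, 95% interval −0.16 to 0.09).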

How the data were processed

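RNA from B cells of 3 Ahr+/+ and 3 Ahr-/- mice was sequenced by the authors as stranded, polyA-selected libraries. The submitters' processing notes name TopHat2, HTSeq, DESeq and the mm10 build, and the use of strand in counting is not given in the sources used here. The deposited table used here holds raw counts per gene symbol. A table of normalised counts and a table of the authors' own comparison (fold changes and p-values) were not used.

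Counts were tested in R 4.3.3 with edgeR 4.0.16 (TMM scaling, quasi-likelihood test, genotype as the only term) on the 13682 genes with at least 10 counts in total, with Benjamini-Hochberg adjustment over all of them and calls at an adjusted p under 0.05. Genes below the minimum numbered 9738. DESeq2 1.42.0 and 14 other alternatives were run, and the scripts were tested on simulated data. Normalised counts are counts divided by TMM-scaled library size relative to its mean. Exon lengths and positions are from GENCODE vM21 (GRCm38), and promoter sequences from RefSeq (GRCm38.p6). Figures were drawn with matplotlib 3.10.9.

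Named were all 10 members, Ahr, genes of the related lists that passed (the 4 largest changes where more than 4 did), Dtx3l, Stat6, Xrcc1 and Hpf1, and the 5 genes most like Tiparp. Nampt, Ly6d, Bst2, Itgax, Clec9a and Clec10a were named after their values were seen. Members and lists were chosen with earlier results of these data known. No libraries of a genotype were duplicates (chi-square of their counts 3.96 to 9.24 per degree of freedom). The floor covers counting error only, and the 95% intervals of fold changes, from the edgeR fit, include the spread between mice.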

Additional observations from a re-analysis of the deposited data

How the results depend on the processing

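Over 14 alternative fits (other scaling, filters, DESeq2, a robust fit, a replicate block, each library left out and, for fold changes, another prior count or, for numbers of genes, a stricter threshold), the log2 fold change of Tiparp lay between −4.34 and −4.28. Another prior count moves fold changes only and cannot change a call. Parp3 (0.32 to 0.39) and Parp8 (0.35 to 0.50) kept their calls, and Parp2 and Parp10 kept their direction without passing. Members that passed numbered 3 or 4, AhR target genes 4 and strand break repair partners 0 in every fit. With library size alone as scaling, Parp1 changed sign to 0.013 and Parp14 to 0.0082, neither past the threshold, and Parp4 did not pass (−0.11). Leaving out each library in turn gave log2 fold changes for Parp1 of −0.036 to 0.00015, Parp9 of −0.091 to 0.15, Parp12 of −0.26 to 0.35 and Parp14 of −0.17 to 0.15. The number of other PARP family genes that passed was 0 to 1, of readers, erasers and partners 0 to 1 (1 without Ahr+/+ replicate 1), of NAD genes 1 to 2 (2 without Ahr+/+ replicate 2), and of interferon-stimulated genes 0 to 2. At an adjusted p under 0.01, 0 other PARP family genes and 1473 of all genes passed, against 2453 at 0.05; the other fits called 1664 to 2639. The labels do not state whether replicate numbers pair the mice. The correlations of same-numbered deviations were −0.15, 0.261 and −0.189 over 9692 genes, and those of different-numbered mice lay between −0.351 and 0.37. With 3 mice per genotype these correlations cannot decide whether mice were paired. With the replicate number as a block 2304 genes passed, 2217 of them shared with the fit without it, and all 4 members kept their calls. No scaling moved the median log2 fold change of all genes by over 0.1. Parp12 had the fewest reads of the members, 34 to 87 counts per library. The causes of the differences between fits were not tested.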
